A study of Macaca mulatta with 6 samples.

Results

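The chemokine and interleukin genes of rhesus monkey testis cultures, which the study describes as spermatogonial stem cells (SSCs), were examined for their response to platelet-derived growth factor (PDGF). Genes were taken by symbol, as every row whose name begins with CCL, CXCL, CCR or CXCR or with IL and a digit, or is CX3CL1, ACKR3 or ACKR4, apart from the unrelated ILF, ILK and IL4I1 names. This gave 105 of the 17795 genes listed, of which 50 had 20 or more counts over all libraries and are described here. The other 55 comprised 27 with no count in any library and 28 with at most 19 counts. Some symbols of these families, such as CXCL8, IL1A, IL1B, IL11, IL18 and IL13RA1, were not among the genes listed. Their levels are therefore not known. By role the 50 genes divide into 10 chemokine ligands, 2 chemokine receptors, 12 interleukins, 25 interleukin receptor chains and 1 interleukin-binding protein, IL18BP.

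Bulk RNA sequencing covered 3 libraries of cultures with human PDGF (SSC PDGF+) and 3 libraries of PDGF-free cultures (SSC PDGF-), all from rhesus macaque (Macaca mulatta) testis. The study's methods give a single recipe for SSC culture, a serum-containing medium with GDNF, EGF, bFGF, Wnt3a, mouse LIF and PDGF over gelled droplets of basement membrane extract. The labels name only the presence or absence of PDGF, so whether the PDGF-free cultures matched this recipe in all else is not given in the sources used here. In each group replicate 1 belongs to batch 1 and replicates 2 and 3 belong to batch 2. Neither the animals nor the days in culture are given for these libraries, and nothing states that replicates are separate cultures, so p-values measure the spread between libraries, which may be technical. Libraries held 10593805 to 14102697 counts, more in SSC PDGF+ than in SSC PDGF-. Levels are counts scaled to library size (CPM) after TMM normalization, fold changes are on the log2 scale (log2FC, SSC PDGF+ over SSC PDGF-) with their standard error (SE), and a gene was called higher or lower at a Benjamini-Hochberg adjusted p under 0.05 in edgeR's quasi-likelihood test over 11539 genes.

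Chemokines are small secreted proteins that guide migrating cells through G protein-coupled receptors, while many interleukins act through paired receptor chains that engage JAK-STAT or NF-kB signaling. Stromal cells as well as leukocytes make them, and in the testis CXCL12 and its receptor CXCR4 are known for holding spermatogonial stem cells in their niche. Cell type markers were read beside them, since in bulk libraries fewer cells of a type and less RNA per cell cannot be told apart. The 7 general leukocyte markers listed summed to 24.5 to 36.4 CPM with PDGF and 25.4 to 31.8 CPM without. PTPRC, the pan-leukocyte surface gene, had 0 counts in every library, while CORO1A averaged 19.7 CPM with PDGF and 11.9 CPM without, CD37 averaged 8.27 and 9.42 CPM, and LCP1 was lower with PDGF at 1.48 against 4.48 CPM (edgeR adjusted p = 0.029). Of 8 T and NK cell markers listed, 6 were at 0 and the summed level was at most 0.686 CPM in any library. The 11 macrophage and monocyte markers summed to 22.0 to 24.6 CPM with PDGF and 21.7 to 31.4 CPM without, and CD68 averaged 15.8 and 12.9 CPM of this. Stromal fibroblast markers were the most abundant list, at 23422 to 28617 CPM with PDGF and 26174 to 27433 CPM without. All 9 of them were tested, 0 were higher with PDGF and 2 were lower. These were COL3A1, at 2852 against 5972 CPM on average (edgeR adjusted p = 4.2e-04), and PDGFRA, at 550 against 812 CPM (0.044). Among 14 undifferentiated spermatogonial markers, ID4 and UCHL1 were abundant, but NANOS2 had 0 counts, ZBTB16 had 10 and GFRA1 had 23 over all libraries. This list summed to 378 to 437 CPM with PDGF and 354 to 466 CPM without. Most of the sum was ID4, at 131 and 163 CPM on average, and UCHL1, at 263 and 185 CPM, with and without PDGF. The germ cell genes DDX4 and DAZL averaged 0.305 and 0.210 CPM with PDGF and 2.13 and 1.13 CPM without. Among the 6 genes of this list that were tested, UCHL1 was higher with PDGF and 3 were lower. These were FGFR3, at 13.7 against 57.8 CPM on average (edgeR adjusted p = 0.019), DDX4 (0.028) and TSPAN33 (0.0033). Spermatid markers summed to 55.6 to 86.1 CPM with PDGF and 473 to 765 CPM without. Peritubular myoid markers summed to 400.0 to 508 CPM with PDGF and 1015 to 1169 CPM without, and epithelial markers to 35.6 to 52.0 and 93.9 to 129 CPM. The part that such shifts in cell types have in the results below was not tested. Which cells held the transcripts described below was not tested either.

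PDGF supplementation was accompanied by more transcripts of the monocyte chemoattractants CCL2 and CCL7, of the alarmin IL33 and its receptor IL1RL1, of IL24, of the stromal chemokine CXCL12 and of the shared receptor chain IL6ST. CCL18, IL17B and IL20RA were lower. The calls of CCL2, CCL7, IL33 and IL17B held in all 18 other fits. Of the 6 fits that left out 1 library, IL24 kept its call in 5 and IL20RA in 4. CCL18, IL1RL1 and IL6ST each kept theirs in 2, and CXCL12 in 0. Of the 50 genes, 42 passed the count filter and were tested, 7 of them were higher (16.7%) and 3 were lower (7.14%), against 7.61% higher and 10.7% lower over all genes tested. The median log2FC was 0.29 over these 42 genes and 0.02 over all genes tested. A fit blocked on replicate number called 15 of the 42 higher (35.7%) and 6 lower (14.3%), where 31.1% and 29.0% of all genes tested were called. The 3 libraries of one group lay wholly above those of the other in 15 of the 42 genes for SSC PDGF+ and in 6 for SSC PDGF-, or 35.7% and 14.3%, against 18.2% and 19.3% of all genes tested. Together the 105 genes took 0.176% to 0.203% of all counts with PDGF and 0.101% to 0.107% without. Without IL33 and CCL2, left out after their values were seen, the shares were 0.117% to 0.124% with PDGF and 0.0902% to 0.0998% without.

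**Figure D1:**
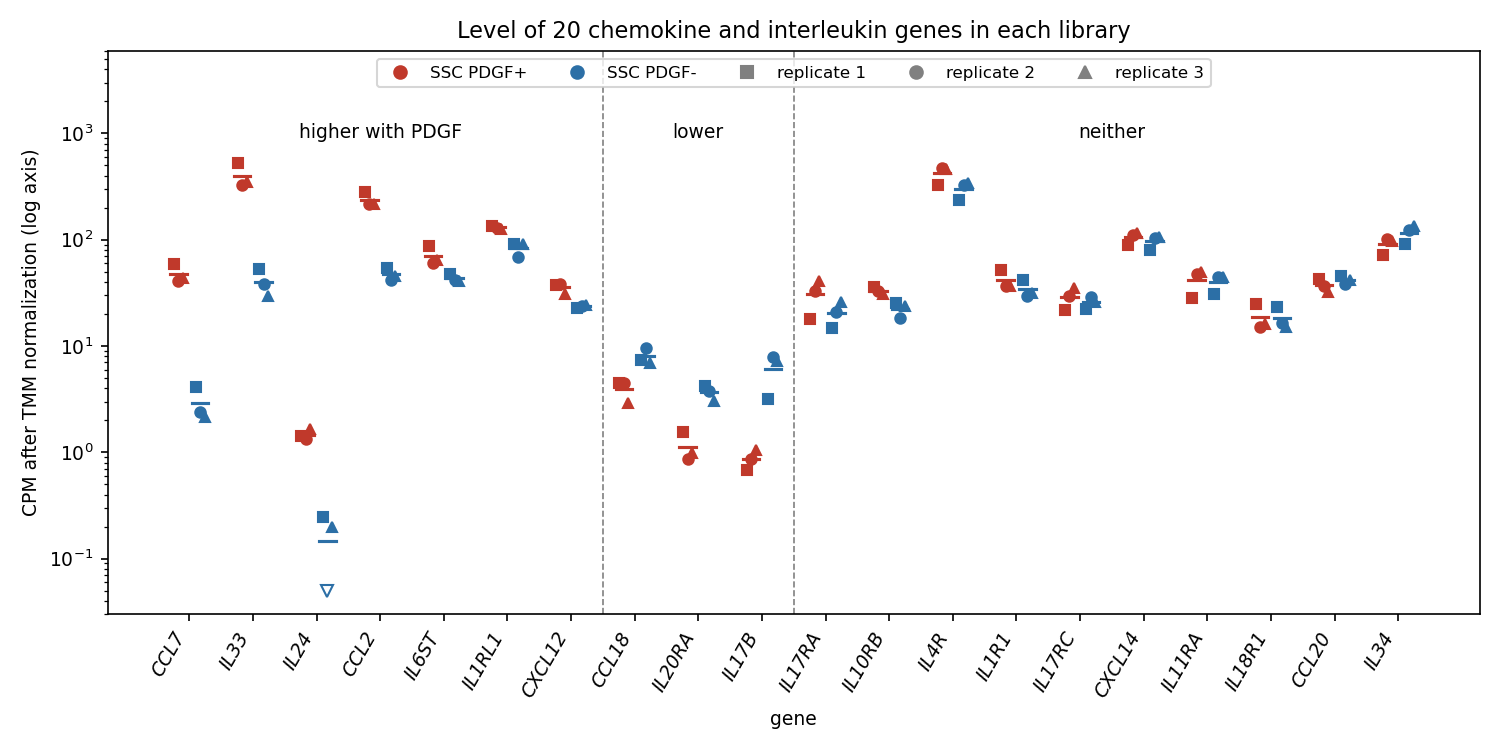
CPM after TMM normalization on a log axis for the 20 genes that were called or averaged at least 10 CPM in a group, with 1 symbol per library, a line at each group mean and an open triangle for the IL24 library with 0 counts. The red SSC PDGF+ symbols of CCL7, IL33 and CCL2 stand clear of the blue SSC PDGF- symbols, while IL18R1, CCL20 and CXCL14 overlap.

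**Figure D2:**
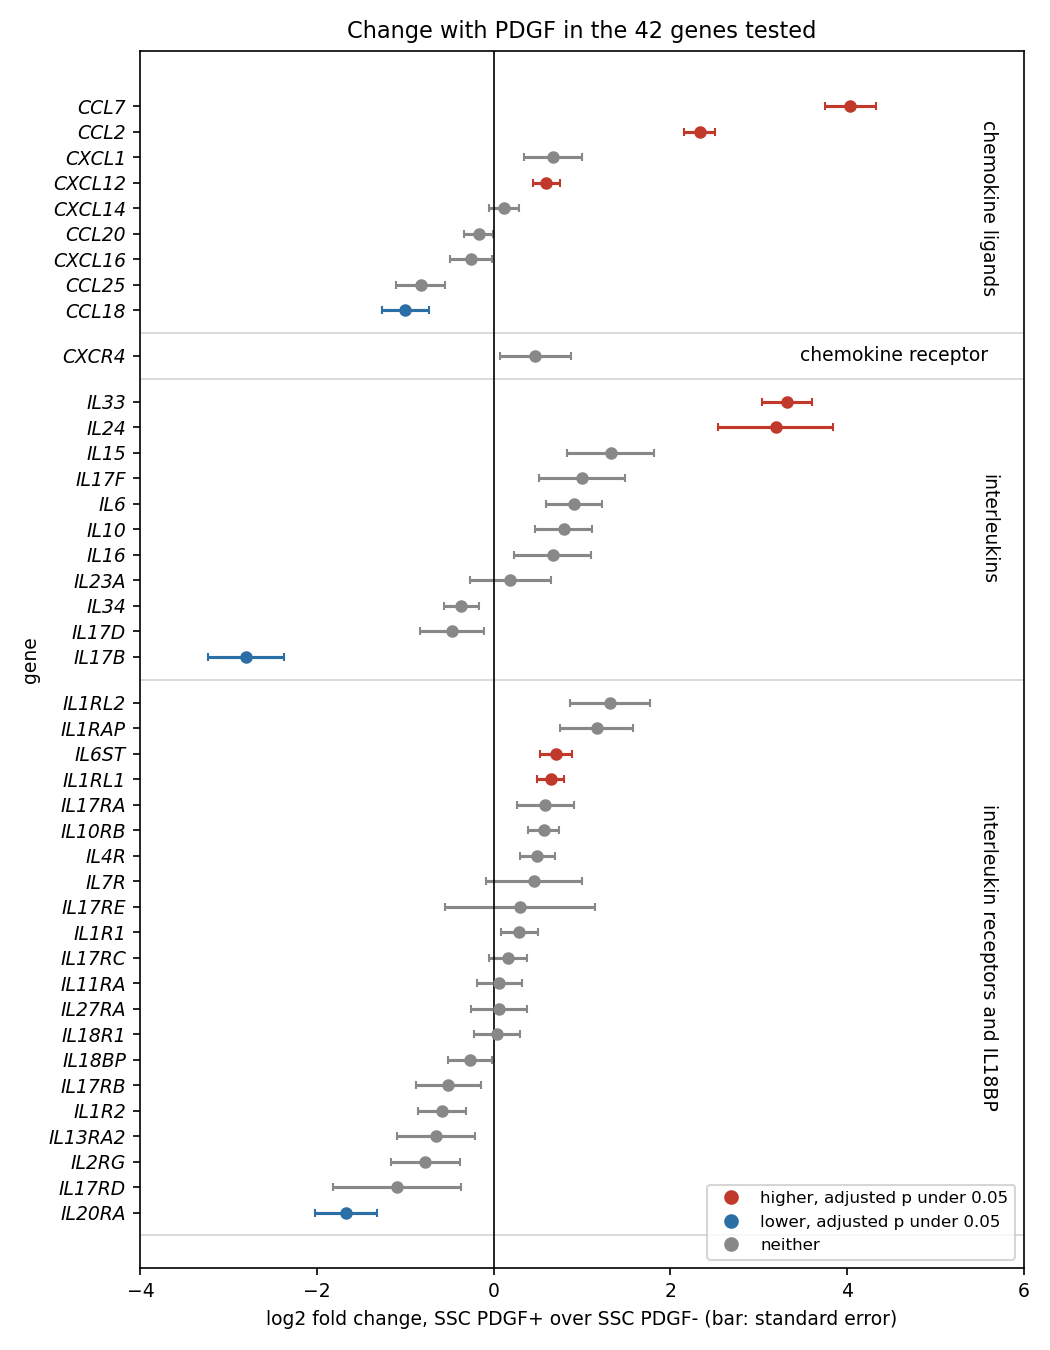
Log2FC with its SE for the 42 genes tested, grouped by role. CCL7 lies farthest to the right at 4.04 and IL17B farthest to the left at -2.80, and most receptor chains lie within 1 log2 unit of 0.

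CCL2 and CCL7, which both attract monocytes through the receptor CCR2, neighbour each other on chromosome 16 of the Mmul_10 assembly. CCL2 lies at chr16:30638331-30639783 and CCL7 at chr16:30652956-30655157, both on the plus strand. CCL2 was at 283, 215 and 218 CPM in SSC PDGF+ replicates 1, 2 and 3 and at 54.4, 41.95 and 45.6 CPM in the SSC PDGF- replicates. CCL7 was at 59.3, 41.3 and 43.3 CPM with PDGF and at 4.11, 2.39 and 2.16 CPM without. Every library with PDGF stood above every library without it for both genes, and replicate 1 was the highest in each group. The change was 5.04-fold for CCL2 (log2FC 2.33, SE 0.18, edgeR adjusted p = 1.8e-04). CCL7 changed 16.4-fold (log2FC 4.04, SE 0.29, edgeR adjusted p = 1.5e-04). Within batch 1 the log2 differences were 2.38 and 3.84, and within batch 2 they were 2.30 and 4.19. Both calls held in each of the 18 other fits, with log2FC values of 2.20 to 2.44 for CCL2 and 3.86 to 4.38 for CCL7. The number of CCL2 counts per CCL7 count was 4.76, 5.20 and 5.03 with PDGF and 13.2, 17.5 and 21.1 without. CCR2 was not among the genes listed.

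Other CC chemokines behaved differently. CCL20, the ligand of CCR6, was at 42.7, 36.8 and 32.2 CPM with PDGF and at 45.2, 38.4 and 41.8 CPM without, so the groups overlapped. Its log2FC was -0.17 (SE 0.16, edgeR adjusted p = 0.51). CCL18, a chemokine known from alternatively activated macrophages, was at 4.52, 4.46 and 2.93 CPM with PDGF and at 7.31, 9.67 and 6.96 CPM without. The groups did not overlap, and the log2FC was -1.004 (SE 0.27, edgeR adjusted p = 0.035). Its adjusted p rose to 0.082 or 0.12 when SSC PDGF+ replicate 2 or 3 was left out, and to 0.12 or 0.068 when SSC PDGF- replicate 2 or 3 was, so the call was lost in these 4 fits. CCL25, the ligand of CCR9, ranged from 2.78 to 3.10 CPM with PDGF and from 3.86 to 6.37 CPM without, with a log2FC of -0.83 (edgeR adjusted p = 0.075, or 0.021 with the replicate block, or 0.029 without SSC PDGF- replicate 1). CCL4L1, which belongs to a family of near-identical copies, had 46 counts in all and did not pass the filter.

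Among the CXC chemokines, CXCL12 was the gene called. It was at 37.5, 37.9 and 31.2 CPM with PDGF and at 22.7, 23.7 and 24.2 CPM without. The lowest library with PDGF exceeded the highest without it, and the log2FC was 0.59 (SE 0.15, edgeR adjusted p = 0.033). Leaving out any 1 library ended the call, as did upper quartile normalization (adjusted p = 0.054), with adjusted p = 0.059, 0.12 and 0.058 without SSC PDGF+ replicates 1, 2 and 3 and 0.051, 0.10 and 0.096 without SSC PDGF- replicates 1, 2 and 3; with the replicate block it was 5.4e-05. CXCR4, the receptor of CXCL12, was sparse at 1.02 to 1.35 CPM with PDGF and 0.657 to 1.08 CPM without (log2FC 0.47, SE 0.40, edgeR adjusted p = 0.45). CXCL14, which is abundant in many epithelia and stromal cells, was at 89.2, 111 and 115 CPM with PDGF and at 80.3, 104 and 106 CPM without, a log2FC of 0.12 within the replicate spread (edgeR adjusted p = 0.66). CXCL16, a membrane-bound ligand of CXCR6, gave -0.26 (edgeR adjusted p = 0.48), and some of its exon bases overlap those of MED11 and ZMYND15 on the other strand. CXCL1, a neutrophil attractant with close paralogs, was at 2.97 to 3.31 CPM with PDGF and 1.57 to 2.79 CPM without, a log2FC of 0.67 that did not pass the threshold (edgeR adjusted p = 0.20). The other chemokine receptor, CCR10, was counted 5, 9 and 6 times with PDGF and 1, 16 and 24 times without. It was too sparse for the filter, and its direction in batch 1 was opposite to that in batch 2.

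IL33 is an alarmin of the interleukin-1 family that is stored in the nucleus of stromal and endothelial cells, and IL1RL1 is its receptor, which signals together with IL1RAP. IL33 was at 530, 327 and 346 CPM in SSC PDGF+ replicates 1, 2 and 3 and at 52.6, 38.2 and 29.4 CPM in the SSC PDGF- replicates. The groups lay far apart, with replicate 1 again the highest of each. The difference was about an order of magnitude (log2FC 3.32, SE 0.28, edgeR adjusted p = 2.7e-04), with a log2 difference of 3.33 in batch 1 and 3.31 in batch 2. Over the 18 other fits it ranged from 3.08 to 3.56, and every call held. IL1RL1 was at 136, 129 and 127 CPM with PDGF and at 90.8, 69.3 and 90.3 CPM without. The groups did not overlap, and the log2FC was 0.64 (SE 0.15, edgeR adjusted p = 0.022, or 4.5e-08 with the replicate block). The same 4 libraries each ended the call when left out, SSC PDGF+ replicates 2 and 3 with adjusted p = 0.072 and 0.066 and SSC PDGF- replicates 2 and 3 with 0.084 and 0.057. IL1RAP was at 6.48, 5.94 and 4.58 CPM with PDGF and at 4.19, 2.01 and 1.27 CPM without, a log2FC of 1.17 that missed the threshold (SE 0.42, edgeR adjusted p = 0.090). It passed with the replicate block (adjusted p = 0.0013), in DESeq2 (0.035) and without SSC PDGF- replicate 1 (0.010). Per count of IL1RL1 there were 3.91, 2.53 and 2.73 counts of IL33 with PDGF and 0.579, 0.552 and 0.325 without.

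**Figure D3:**
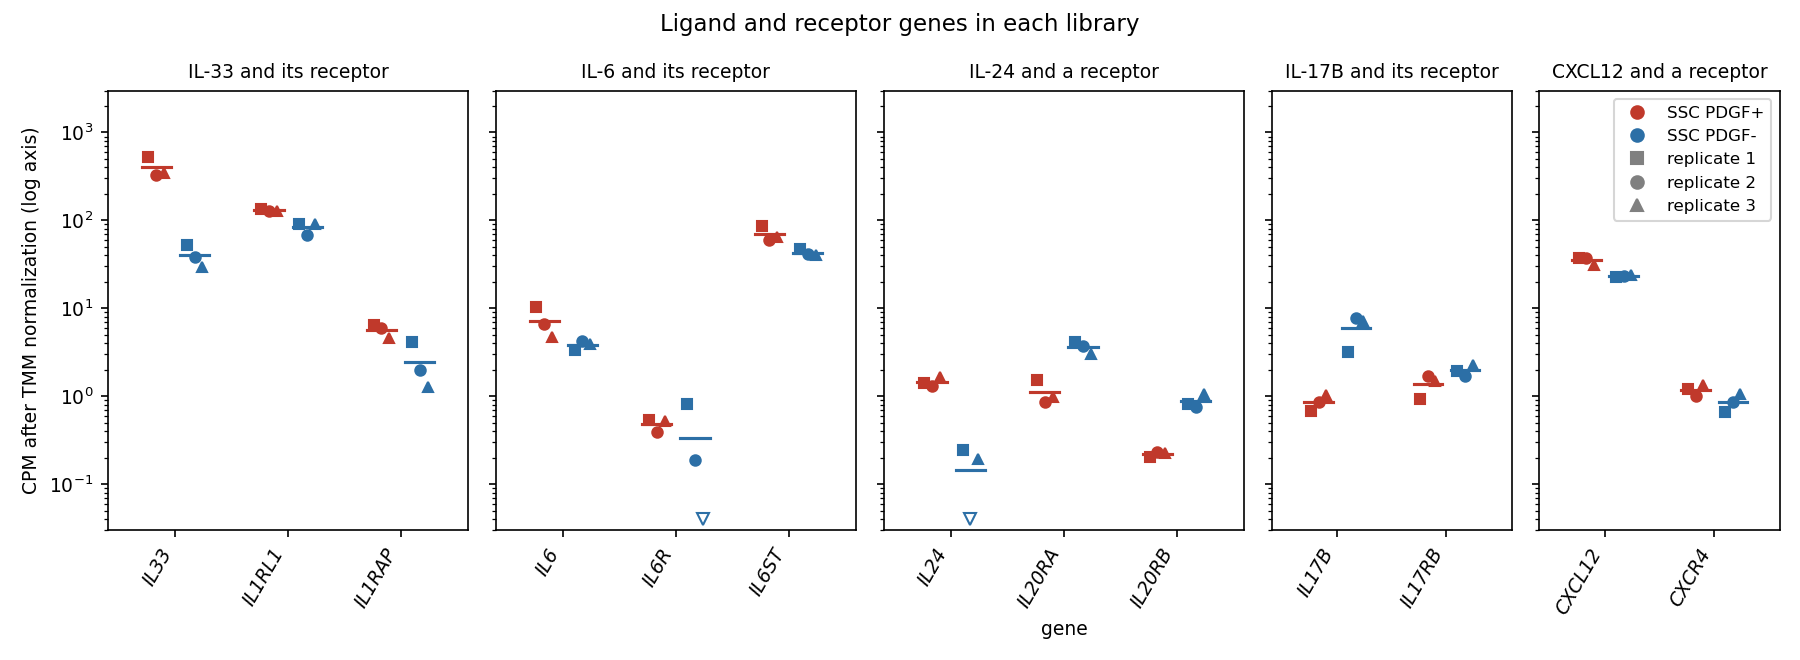
CPM after TMM normalization on a log axis for 5 ligands and chains of their receptors, with 1 symbol per library, a line at each group mean and open triangles for libraries with 0 counts. IL33 and IL1RL1 were both higher with PDGF, whereas IL24 was higher and IL20RA lower.

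The receptor genes of the interleukin-1 family form a cluster on chromosome 13 of Mmul_10, and 6 of them belong to the genes described here. From chr13:5801167-5820963 to chr13:6193733-6226056 the order is IL1R2, IL1R1, IL1RL2, IL1RL1, IL18R1 and IL18RAP, all on the plus strand. IL1RL1 was the only one of the 5 tested that was called in the fit without a block. IL1R2, a decoy receptor for interleukin-1, ranged from 2.82 to 4.88 CPM with PDGF and from 5.88 to 6.51 CPM without, with a log2FC of -0.58 (SE 0.27, edgeR adjusted p = 0.17). It passed narrowly with the replicate block (adjusted p = 0.048) and with batch as a term (0.0498), but not with replicates 2 and 3 summed and batch as a term (0.064). IL1R1, the signaling receptor of interleukin-1, was at 51.9, 36.4 and 36.8 CPM with PDGF and at 41.4, 29.6 and 31.3 CPM without. Its groups overlapped, with replicate 1 the highest of each, and the log2FC of 0.29 missed the threshold in edgeR (adjusted p = 0.37) but not under the replicate block (0.0083). IL1RL2, the receptor of IL-36 cytokines, was higher in every library with PDGF at 0.977 to 1.64 CPM against 0.383 to 0.588 CPM, but at these counts the log2FC of 1.32 had a SE of 0.46 (edgeR adjusted p = 0.083). IL18R1, a chain of the interleukin-18 receptor, was at 24.9, 15.2 and 16.1 CPM with PDGF and at 23.2, 16.5 and 14.99 CPM without, a log2FC of 0.04 (edgeR adjusted p = 0.93). IL18RAP, the second chain, had 24 counts in all and was not tested. IL18BP, which neutralizes interleukin-18, had a log2FC of -0.27 (edgeR adjusted p = 0.48).

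**Figure D4:**
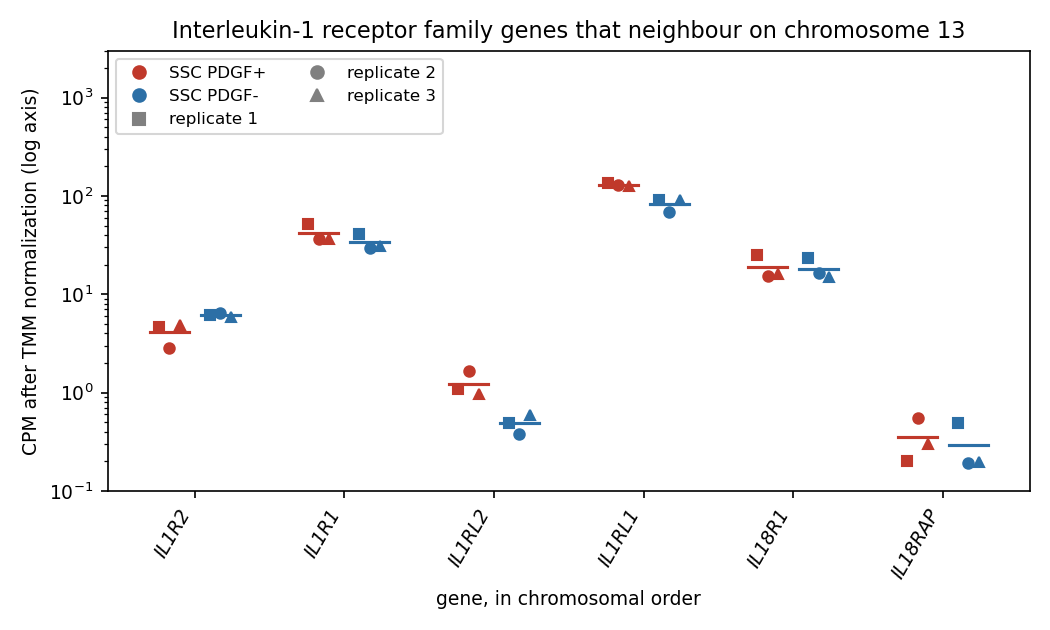
CPM after TMM normalization on a log axis for the 6 interleukin-1 receptor family genes that neighbour on chromosome 13, in their order along it, with 1 symbol per library and a line at each group mean. IL1RL1 is the most abundant, and its groups are apart, whereas those of IL1R1 and IL18R1 overlap.

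The 250 bases upstream of the annotated start were read for the called genes, as the RefSeq annotation of Mmul_10 places it. This could be done for 7 of the 10, since the gene models of CCL2, CCL18 and IL24 begin at the start codon. CCL7 and IL33 are shown because they had the largest changes among these 7. Capitals mark matches to AP-1 (TGANTCA) and STAT (TTCNNNGAA) motifs. NF-kB (GGGNNTTCC) and the hypoxia element (ACGTG) were searched as well, all on both strands.
CCL7, chr16:30652706-30652955, plus strand: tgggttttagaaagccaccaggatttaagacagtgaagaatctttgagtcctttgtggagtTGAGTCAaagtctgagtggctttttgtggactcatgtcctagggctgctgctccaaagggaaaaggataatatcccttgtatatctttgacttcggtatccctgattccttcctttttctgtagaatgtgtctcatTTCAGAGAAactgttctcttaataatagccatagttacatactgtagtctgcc
IL33, chr15:77540357-77540606, minus strand: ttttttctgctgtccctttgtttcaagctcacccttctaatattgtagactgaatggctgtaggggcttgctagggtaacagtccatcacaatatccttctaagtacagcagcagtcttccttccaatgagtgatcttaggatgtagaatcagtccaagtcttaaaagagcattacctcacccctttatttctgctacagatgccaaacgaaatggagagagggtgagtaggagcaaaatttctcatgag
The CCL7 stretch held 1 AP-1 match, TGAGTCA, at 189 to 183 bases before the start, and 1 STAT match, TTCAGAGAA, at 53 to 45 bases before it. IL33, CXCL12, IL17B, IL1RL1, IL20RA and IL6ST held none of these letters in that window. Over 14575 upstream stretches of the same length, 4.70% held the AP-1 motif, 5.78% the STAT motif, 5.48% the NF-kB motif and 19.3% the hypoxia element. A match is a run of letters and no measurement of binding.

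Members of the interleukin-10 family and their receptors changed in both directions. IL24, a secreted cytokine of this family, was counted 21, 17 and 22 times with PDGF against 3, 0 and 2 times without. Over the group totals this was a ratio of 9.63 with an exact (Clopper-Pearson) 95% interval of 3.90 to 30.7, which covers counting error only. The edgeR log2FC was 3.19 (SE 0.65, adjusted p = 0.013), and the adjusted p was 0.0502 without SSC PDGF+ replicate 3. With at most 3 counts in any library without PDGF, IL24 passed the count filter only through its libraries with PDGF. Its call was the same with no count filter. Part of the IL24 exons overlap FCMR on the opposite strand, and whether counting used strand is not given in the sources used here. IL20RA, a receptor chain through which IL-24 can signal, was at 1.55, 0.860 and 0.977 CPM with PDGF and at 4.19, 3.74 and 3.04 CPM without. The groups did not overlap, and the log2FC was -1.68 (SE 0.35, edgeR adjusted p = 0.014), with 0.063 without SSC PDGF+ replicate 2 and 0.063 without SSC PDGF+ replicate 3. IL20RB, which pairs with IL20RA, had 3 counts in each library with PDGF and 10, 8 and 11 without, a ratio of 0.249 with PDGF over without (exact 95% interval 0.104 to 0.540, counting error only). IL10, the anti-inflammatory founder of the family, was at 5.06, 3.75 and 4.88 CPM with PDGF and at 3.70, 2.01 and 2.16 CPM without. Its groups came close but did not overlap, with a log2FC of 0.79 (SE 0.32, edgeR adjusted p = 0.13, or 0.025 with the replicate block and 0.038 without SSC PDGF- replicate 1). IL10RB, a chain shared by several receptors of the family, was at 36.0, 33.2 and 30.6 CPM with PDGF and at 25.5, 18.4 and 23.6 CPM without. Its log2FC of 0.56 had an edgeR adjusted p = 0.062 and passed with the replicate block (1.5e-04), in DESeq2 (0.034) and without SSC PDGF- replicate 1 (0.038). IL10RB and IFNAR2 had the same count in all 6 libraries, and their reads could not be separated.

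The interleukin-6 pathway was represented by ligand, specific receptor and shared chain. IL6ST, the signal-transducing chain shared by interleukin-6, LIF and oncostatin M, was at 86.7, 60.1 and 64.5 CPM with PDGF and at 47.1, 41.95 and 40.5 CPM without. No library with PDGF fell to the level of those without, and the log2FC was 0.71 (SE 0.18, edgeR adjusted p = 0.029, or 1.6e-07 with the replicate block). Leaving out SSC PDGF+ replicates 1 or 3 gave adjusted p = 0.051 and 0.064, leaving out SSC PDGF- replicates 2 or 3 gave 0.11 each time, and upper quartile normalization gave 0.053, none of which passed. IL6 was at 10.3, 6.72 and 4.73 CPM with PDGF and at 3.37, 4.31 and 3.92 CPM without. The 3 libraries with PDGF were all higher and spread more widely than those without, and the log2FC of 0.91 (SE 0.32) missed the threshold in edgeR (adjusted p = 0.087) but not under the replicate block (0.0073). IL6R, the specific receptor, had 32 counts in all and was not tested. IL11RA, the receptor of interleukin-11, was at 28.3, 47.2 and 49.4 CPM with PDGF and at 30.6, 44.3 and 44.7 CPM without, a log2FC of 0.06 (edgeR adjusted p = 0.89). GALT carried the same counts as IL11RA, so the 2 genes could not be separated. IL27RA, a receptor of interleukin-27, also gave 0.06 (edgeR adjusted p = 0.92), and IL31RA, which pairs with the oncostatin M receptor, had 40 counts and was not tested.

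Of the interleukin-17 family, IL17B was lower with PDGF. It was counted 10, 11 and 14 times with PDGF and 39, 82 and 73 times without, which is 0.675, 0.860 and 1.05 CPM against 3.20, 7.85 and 7.15 CPM. SSC PDGF- replicate 1 stood below the other two of its group and still above every library with PDGF. The change was 6.97-fold (log2FC -2.80, SE 0.43, edgeR adjusted p = 0.0039), with -2.19 in batch 1 and -2.93 in batch 2, and the call held in all 18 other fits. IL17RB, which binds IL-17B, was at 0.945 to 1.72 CPM with PDGF and 1.72 to 2.25 CPM without, a log2FC of -0.52 that missed the threshold (SE 0.37, edgeR adjusted p = 0.36). IL17RA, a receptor chain common to much of the family, was at 17.9, 33.2 and 41.0 CPM with PDGF and at 14.9, 20.7 and 25.9 CPM without. The groups overlapped through the low SSC PDGF+ replicate 1. The log2FC was 0.58 (SE 0.32, edgeR adjusted p = 0.25, or 2.9e-04 with the replicate block and 0.045 without SSC PDGF+ replicate 1). IL17RC, its partner chain, was at 21.7, 29.5 and 35.5 CPM with PDGF and at 22.3, 28.9 and 26.1 CPM without (log2FC 0.16, edgeR adjusted p = 0.63). Some exon bases of IL17RC overlap CRELD1 on the same strand. The ligands IL17D and IL17F gave log2FC values of -0.47 (edgeR adjusted p = 0.40) and 1.00 (0.19), and the receptors IL17RD and IL17RE gave -1.10 (0.33) and 0.30 (0.84), all at low counts.

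IL4R, the receptor chain for interleukins 4 and 13, had more counts in all than any other gene of the 50. It was at 331, 474 and 462 CPM with PDGF and at 237, 324 and 339 CPM without, so the lowest library with PDGF fell among those without. The log2FC was 0.49 (SE 0.19, edgeR adjusted p = 0.12), 0.48 in batch 1 and 0.50 in batch 2, and it passed the threshold with the replicate block (adjusted p = 3.0e-09) and without SSC PDGF+ replicate 1 (0.037). IL13RA2, a decoy receptor for interleukin-13, gave -0.65 at 1.06 and 1.67 CPM on average (edgeR adjusted p = 0.34). IL34, a ligand of the macrophage colony-stimulating factor receptor CSF1R, was at 71.7, 101 and 97.4 CPM with PDGF and at 91.9, 123 and 134 CPM without. The groups overlapped, and the log2FC was -0.37 (SE 0.20, edgeR adjusted p = 0.23, or 1.8e-05 with the replicate block). CSF1R itself had 54 counts over all libraries.

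Lymphocyte cytokines and their receptor chains were sparse. IL15, which sustains NK and memory T cells, was at 2.63, 1.80 and 1.88 CPM with PDGF and at 1.40, 0.383 and 0.686 CPM without, a log2FC of 1.32 (SE 0.49, edgeR adjusted p = 0.098, or 0.018 with the replicate block and 0.029 without SSC PDGF- replicate 1). IL2RG, the chain common to the interleukin-2 receptor family, gave -0.78 (edgeR adjusted p = 0.21), and part of its exons overlap MED12 on the other strand. IL16, IL23A and IL7R gave 0.67 (edgeR adjusted p = 0.32), 0.19 (0.81) and 0.46 (0.59). IL2RA was counted 1, 1 and 0 times with PDGF and 2, 20 and 2 times without, so 1 library held most of them, and the ratio of 0.0668 with PDGF over without came with exact 95% bounds of 0.00766 and 0.269 from counting error alone. IL37, an inhibitory interleukin-1 family member, had 23 counts in all.

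Levels can be compared between genes only per length, here as CPM per kb of merged exons in RefSeq. This leaves out the 6 gene models that begin at the start codon, CCL2 among them, whose true transcript length is longer than annotated. With PDGF the highest mean was that of IL33 at 141 CPM per kb, followed by IL4R at 117, CXCL14 at 63.4, IL34 at 49.7, CCL7 at 48.5 and CCL20 at 39.1. The ranges of IL33 (115 to 186) and IL4R (91.5 to 131) overlapped, as did those of CXCL14, IL34 and CCL7, and those of IL34, CCL7 and CCL20. Within each library with PDGF, CXCL14 stood above IL34 and CCL7 above CCL20. The order of IL33 and IL4R differed between libraries, as did that of CXCL14 and CCL7 and that of IL34 with CCL7 or CCL20. Without PDGF the means were those of IL4R at 83.0 CPM per kb, IL34 at 64.2, CXCL14 at 58.3, CCL20 at 43.9 and IL33 at 14.1, and CCL7 stood at rank 17 with 2.92. The ranges of IL4R (65.6 to 93.9), IL34 (50.6 to 73.9) and CXCL14 (48.4 to 64.1) overlapped from one to the next. Within each library without PDGF, IL4R stood above IL34 and IL34 above CXCL14. IL33 and IL1RL1 overlapped, at 10.3 to 18.4 and 10.7 to 14.1 CPM per kb, and their order differed between libraries.

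Replicate 1 is the single batch 1 library of each group, so batch and library cannot be told apart. This library lay above both batch 2 libraries of its group, in both groups, for 16 of the 42 genes, which include IL33, CCL2, CCL7, IL1RL1, IL1R1, IL6ST and IL18R1. It lay below them in both groups for 10, which include IL4R, IL34, CXCL14, IL17RA, IL17RC and IL11RA. These are 38.1% and 23.8% of the 42, where the shares over all genes tested were 35.6% and 35.7%. The sign of the PDGF difference was the same in both batches for 38 of the 42 genes. The exceptions were IL11RA (-0.11 in batch 1 and 0.12 in batch 2), IL17RC (-0.04 and 0.24), IL18R1 (0.10 and -0.01) and IL17RE (-1.10 and 0.84). The share of all genes tested with the same sign in both batches was not computed. In edgeR's test of the group by batch term 0 of the 42 genes were called, and 0 of all 11539 genes tested. An unadjusted p under 0.05 in this test was found for 1 of the 42 and for 526 of the 11539. Batch 1 has 1 library per group, so this test rests on the spread between replicates 2 and 3. Summing replicates 2 and 3 of each group, which leaves 2 libraries a group, ended the calls of CXCL12 (adjusted p = 0.23), CCL18 (0.17), IL1RL1 (0.19), IL6ST (0.18) and IL20RA (0.098), and those of CCL2, CCL7, IL33, IL24 and IL17B held. Over all genes tested this fit called 206 higher and 487 lower. With batch as a term the same sums called 3669 and 3420, and kept each of these calls.

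**Figure D5:**
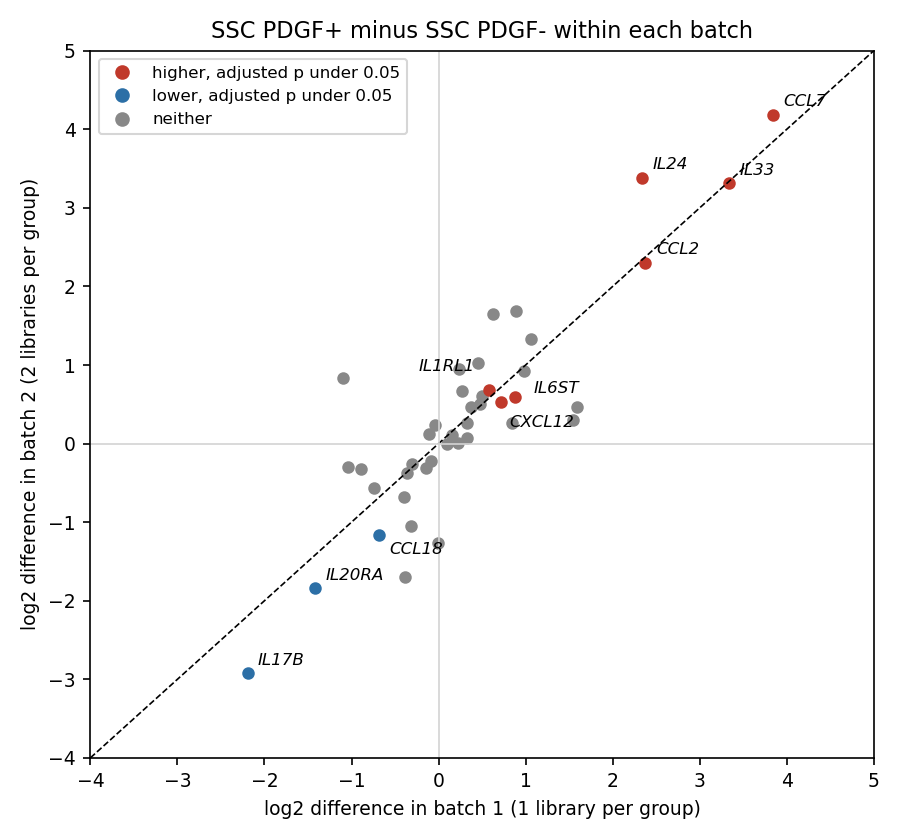
Log2 difference of SSC PDGF+ minus SSC PDGF- within batch 1 (horizontal axis) and within batch 2 (vertical axis) for the 42 genes tested, with 0.5 counts added, and a dashed line where both are equal. The 10 called genes have the same sign in both batches, and IL33 lies on the line at 3.33 and 3.31.

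Genes around these ligands and receptors were read from lists by role. Among cytokines and receptors whose symbols fall outside the rule, 21 of 31 were listed and 11 tested, of which 2 were higher (18.2%) and 3 were lower (27.3%), beside 7.61% and 10.7% of all genes tested. LIF, an IL6ST-dependent cytokine whose mouse protein is also part of the study's culture recipe, was at 114, 138 and 147 CPM with PDGF and at 8.54, 10.9 and 12.8 CPM without (log2FC 3.63, SE 0.21, edgeR adjusted p = 5.7e-05). OSMR, the oncostatin M receptor that pairs with IL6ST, was at 307, 259 and 257 CPM with PDGF and at 89.1, 87.2 and 88.0 CPM without (log2FC 1.64, SE 0.13, edgeR adjusted p = 2.4e-04). CNTFR, another receptor chain of this group, was lower, with a log2FC of -3.45 (edgeR adjusted p = 0.0014). LIF, OSMR and CNTFR kept their calls in each setting that tested them. CD74 of the MHC class II pathway gave -1.07 (edgeR adjusted p = 0.016; 0.067 without SSC PDGF+ replicate 2 and 0.056 without SSC PDGF- replicate 3), and EBI3, a subunit of interleukins 27 and 35, gave -1.03 (0.0499, and 0.11 to 0.17 without any 1 library but SSC PDGF- replicate 1, 0.060 with no count filter and 0.059 in limma-voom).

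Of 25 JAK-STAT signal transducers and inhibitors, 20 were listed and 18 tested. Of these 18, 3 were higher (16.7%) and 2 were lower (11.1%), beside the same 7.61% and 10.7%. SOCS2, SOCS3, SOCS4, SOCS6 and CISH were not among the genes listed, so their levels are not known. SOCS5, a suppressor of cytokine signaling, was at 53.1 CPM (n = 3, SD 4.24) with PDGF and 26.7 CPM (n = 3, SD 1.08) without, a log2FC of 0.99 (edgeR adjusted p = 0.0032). PIAS3, a STAT inhibitor, and PTPN11, a phosphatase of receptor signaling, each rose by 0.53 (edgeR adjusted p = 0.034 and 0.027), while STAT5A fell by 0.98 (0.033) and the kinase JAK1 fell by 0.46 (0.040). PIAS3 lost its call without SSC PDGF+ replicates 2 or 3 or any SSC PDGF- library (edgeR adjusted p of 0.055 to 0.13), and PTPN11 without any SSC PDGF+ library or SSC PDGF- replicates 2 or 3 (0.051 to 0.11) and with upper quartile normalization (0.054). STAT5A lost it without SSC PDGF+ replicates 1 or 3 or SSC PDGF- replicates 2 or 3 (0.077 to 0.12), and JAK1 without SSC PDGF+ replicates 2 or 3 or any SSC PDGF- library (0.058 to 0.15), with no normalization factors (0.072) and with no count filter (0.058). STAT3, which acts downstream of IL6ST, was at 166 CPM (n = 3, SD 5.33) and 168 CPM (n = 3, SD 6.79), a log2FC of -0.02 (edgeR adjusted p = 0.94); it was named after its values were seen.

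All 26 listed genes of interleukin-1 and NF-kB signaling were tested, and 1 was called, a lower one (3.85% against 10.7% of all genes tested). NFKBIA, the inhibitor of NF-kB that is itself induced by NF-kB, was at 193, 199 and 199 CPM with PDGF and at 334, 298 and 313 CPM without, so the groups were well apart (log2FC -0.68, SE 0.12, edgeR adjusted p = 0.0063). With the replicate block 3 of these genes were higher (11.5%) and 9 were lower (34.6%), where 31.1% and 29.0% of all genes tested were called. Of 28 chemokine receptor signal transducers, 23 were listed and 19 tested. Of these 19, 3 were higher (15.8%) and 0 were lower, against 7.61% and 10.7% of all genes tested. With the replicate block 10 were higher (52.6%) and 2 were lower (10.5%), beside the same 31.1% and 29.0%. That block called 36.4% higher and 27.3% lower in the cytokine list, and 33.3% and 27.8% in the JAK-STAT list. RGS1, a regulator that dampens chemokine receptor signaling, was at 5.10 CPM (n = 3, SD 0.939) with PDGF and 0.960 CPM (n = 3, SD 0.242) without (log2FC 2.39, edgeR adjusted p = 0.0025). DOCK2, a Rac activator best known from leukocytes, was at 11.7 CPM (n = 3, SD 1.92) and 4.09 CPM (n = 3, SD 0.281) (log2FC 1.52, edgeR adjusted p = 0.0030). GNAI3, an inhibitory G protein subunit, rose by 0.71 (edgeR adjusted p = 0.026), and lost its call without replicates 2 or 3 of either group (0.053 to 0.10). Median log2FC values of the 4 lists were -0.11, 0.09, -0.05 and 0.20 in this order, beside 0.02 over all genes tested. Summing replicates 2 and 3 of each group left 5 of the 14 calls in these lists, those of LIF, OSMR, CNTFR, RGS1 and DOCK2. It ended those of SOCS5 (edgeR adjusted p = 0.065), CD74 (0.10), NFKBIA (0.14), STAT5A (0.14), GNAI3 (0.18), EBI3 (0.25), PTPN11 (0.26), PIAS3 (0.28) and JAK1 (0.33). The same sums with batch as a term kept all 14.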

How the data were processed

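The authors deposited one unnormalized table of expected counts, by gene symbol, for the 6 libraries. It has 34 values that are not whole, in 13 genes, and these were rounded. The submitters' processing notes list fastp, HISAT2 2.1.0, SAMtools and featureCounts 2.0.1 and the builds Mmul_10 and Mmul_8.0.1, without roles; of 2686 LOC identifiers in the table, 2682 occur in the NCBI RefSeq annotation of Mmul_10 at hand, the source here of positions, lengths and upstream bases. Filters and strand setting are not given in the sources used here.

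Groups, replicates and batches came from the sample labels. Counts were filtered with filterByExpr, scaled by TMM and tested across all genes with edgeR 4.0.16 (R 4.3.3), quasi-likelihood, without a block. SE was taken as |log2FC| over the root of the F statistic. Same-numbered libraries share a batch by the labels, and their deviations from the group means correlated with r = 0.73, 0.35 and 0.37. Batch differences alone can make these values positive, and differently numbered libraries were not compared. The correlations therefore cannot show that the numbers pair the libraries beyond batch. A replicate block, which takes same-numbered libraries as pairs, was fitted as an alternative. Other alternatives used RLE, upper quartile or no factors, other filters, DESeq2 1.42.0, limma-voom (limma 3.58.1), batch terms and left-out libraries; the steps were tested on simulated data. PCR duplicates cannot be told from counts, so exact intervals cover counting error only.

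Members and lists were chosen with earlier results of these data known. Values are given in each library for genes called or at a mean of at least 10 CPM in a group, and from each list up to 3 called genes per direction were named.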

Additional observations from a re-analysis of the deposited data

How the results depend on the processing

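Against 7 genes higher and 3 lower, the replicate block gave 15 and 6, batch as a term 16 and 6, batch 2 alone 13 and 7, replicates 2 and 3 summed 4 and 1, and the same sums with batch 16 and 6. A threshold of 0.01 left 3 and 1, and an absolute log2 fold change of at least 1 left 4 higher. Leaving out 1 library gave 3 to 10 higher (3 with SSC PDGF+ replicate 3 out, 4 with SSC PDGF- replicate 2 or 3 out) and 1 to 5 lower (1 with SSC PDGF+ replicate 2 or 3 out, 5 with SSC PDGF- replicate 1 out). The 4 signaling lists held 11, 18, 26 and 19 tested genes, of which 14 were called. These 14 became 42 with the replicate block, 43 with batch as a term and 36 in batch 2 alone. The sums gave 5 without batch and 43 with it, and leaving out a library gave 7 to 15. A threshold of 0.01 left 7, as did an absolute log2 fold change of at least 1. For these last settings no count over all genes was made. The counts over all genes tested moved as well, from 878 higher and 1230 lower. They were 3587 and 3347 with the replicate block, 3604 and 3387 with batch as a term, and 3041 and 3085 in batch 2 alone. The sums gave 206 and 487 without batch, and 3669 and 3420 with it. With a library left out, 435 to 1284 genes were higher and 726 to 1726 lower. Other normalizations, filters, DESeq2 and limma-voom kept these counts within 1.5 times. CCL2, CCL7, IL33 and IL17B were called in all 18 other fits.

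The sign of 6 genes near 0 depended on the setting. Upper quartile normalization gave -0.0045 for IL11RA, -0.022 for IL18R1 and -0.0064 for IL27RA, and batch 2 alone gave -0.025 for IL18R1 and -0.015 for IL27RA. With a library left out, log2 fold changes ran from -0.0098 to 0.24 for CXCL14, -0.11 to 0.29 for IL11RA, -0.0019 to 0.34 for IL17RC, -0.27 to 0.88 for IL17RE, -0.21 to 0.25 for IL18R1 and -0.195 to 0.33 for IL27RA. The group by batch term called 0 genes under each scaling and filter tried.

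Sparse genes such as IL2RA, CXCR4 and IL20RB have few counts, and a missed threshold there does not show equal levels.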
